A study of Mus musculus with 8 samples.

Results

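Plekho2, Ehbp1l1, Rhpn2, 8430427H17Rik and Creb3l1 are 5 of the 11364 genes whose nascent RNA was measured in K1, K1-ER and K1-E339K-ER erythroid cells. They were chosen by the rank of the authors' moderated t in the RNA comparisons of K1-ER or K1-E339K-ER with K1 cells. Those comparison columns were not used here, so the values just inside and outside that choice are not given, and whether these genes are the strongest targets of wild type KLF1 was not checked. The symbol 8430427H17Rik of the K1-ER table stands as Nol4l in the K1-E339K-ER table. Occupancy was taken from the 24 of 5551 consensus ChIP-seq sites whose listed closest transcription start site (TSS) is that of one of the 5 genes. The choice of genes did not use these site values.

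K1 is an immortalized Klf1-/- line from mouse fetal liver. K1-E339K-ER cells carry KLF1-E339K, with lysine in place of glutamic acid in the second zinc finger, joined to the part of the estrogen receptor (ER) that binds ligand, and K1-ER cells carry the wild type protein in the same form. The fusions were delivered by an MSCV retrovirus with GFP, so their amount is not set by the Klf1 promoter, and all lines share the Klf1-/- background. By the labels, 2 K1 libraries of 4-thiouridine (4sU) labelled RNA were treated with 200 nM 4-hydroxytamoxifen (4-OHT) and 1 with ethanol, while all 3 K1-E339K-ER libraries, each from another clone, were induced with 4-OHT. These cells were given 500 µM 4sU for 30 min. One KLF1-E339K-ER ChIP library and its input came from cells after 3 h in 200 nM 4-OHT. The paper's methods speak of cell lines and of pooled samples, so how many clones the pool held is not clear. None of the 8 labelled samples is a wild type KLF1-ER library. The wild type libraries behind the other column of the site table were not analysed here on their own. Any difference between experiments could therefore not be told apart from one between the proteins. The depth of each library is unknown, since the tables hold no counts. Every value below is the authors' pooled value, without an SD or n, so no difference could be set against the spread between replicates and no test was made.

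KLF1 is an erythroid transcription factor of the KLF/SP family. Its 3 zinc fingers read a G-rich sequence of 9 bases, the complement of the CACCC box found at globin and other red cell genes. The second finger faces the central triplet, whose middle base is position 5 of the motif. Position 5 is a C or a T in the usual motif, called the pyrimidine motif here, and the version with a G or an A there is called the purine motif. The genes have different known roles. Creb3l1 (also called OASIS) encodes a CREB-type transcription factor that is held in the membrane of the endoplasmic reticulum and freed by proteolysis. Ehbp1l1 encodes a protein of endocytic recycling that binds Rab8. Plekho2 encodes a protein with a pleckstrin homology domain, and 8430427H17Rik encodes nucleolar protein 4-like, whose role is less well known.

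The sequence at the centre of the sites was read from NCBIM37 (mm9), the build whose chromosomes held all 5551 site ends. The pyrimidine motif was searched as NGGGCGGGG, NGGGCGTGG, NGGGTGGGG and NGGGTGTGG, and the purine motif as NGGGAGGGG, NGGGAGTGG, NGGGGGGGG and NGGGGGTGG, on both strands of the 101 bases around the midpoint of a site. Overlapping matches were counted separately. In the sequences printed here, capitals mark matches to either motif on the strand shown or on its complement. The first set shows sites where the wild type concentration was the higher one, with a pyrimidine at position 5 of every central match. They are the site upstream of Plekho2 (chr9:65428002-65428102) and the distal site of Creb3l1 (chr2:91895609-91895709), both on the plus strand.
Plekho2 site 1: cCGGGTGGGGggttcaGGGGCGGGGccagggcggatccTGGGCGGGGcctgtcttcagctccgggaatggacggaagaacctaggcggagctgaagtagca
Creb3l1 site 1: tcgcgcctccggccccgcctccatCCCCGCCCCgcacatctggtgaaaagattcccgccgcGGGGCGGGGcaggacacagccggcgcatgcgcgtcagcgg

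The second set shows sites of 8430427H17Rik where the mutant concentration was the higher one and a purine motif lay in the window. They are the upstream site (chr2:153356408-153356508, plus strand), the first intronic site (chr2:153354232-153354332, minus strand) and the pair around an internal start (chr2:153270520-153270620, plus strand, and chr2:153269791-153269891, minus strand).
8430427H17Rik site 3: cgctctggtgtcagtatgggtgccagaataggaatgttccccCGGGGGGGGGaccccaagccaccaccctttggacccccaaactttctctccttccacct
8430427H17Rik site 4: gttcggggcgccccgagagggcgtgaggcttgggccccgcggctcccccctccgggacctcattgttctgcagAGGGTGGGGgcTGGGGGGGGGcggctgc
8430427H17Rik site 11: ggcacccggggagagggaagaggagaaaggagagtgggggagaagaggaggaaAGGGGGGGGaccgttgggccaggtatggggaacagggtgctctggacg
8430427H17Rik site 12: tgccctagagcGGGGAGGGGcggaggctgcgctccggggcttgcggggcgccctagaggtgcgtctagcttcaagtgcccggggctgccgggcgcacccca

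A stretch of 30 bases from the start of Creb3l1 (chr2:91864514-91864543, plus strand) holds both motifs in overlap, and the site upstream of Ehbp1l1 (chr19:5727070-5727170, plus strand) holds neither.
Creb3l1 site 2: tggggagccCGGGGGTGGGGccgatgctgg
Ehbp1l1 site 1: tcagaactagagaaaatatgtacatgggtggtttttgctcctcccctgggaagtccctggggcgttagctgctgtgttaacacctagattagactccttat

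Expression was given as the authors' mean log2 CPM (counts scaled to the size of the library) over all libraries of their fit, which joins cells with and without KLF1 and so shows a level, not a change. Since nascent RNA covers introns, the listed length runs over the whole gene, and levels were compared between genes after division by it. Plekho2 had the highest level per length of the 5 genes, with a mean log2 CPM of 8.21 over 25651 bp, or 3.53 as log2 CPM per kb, at percentile 89.3 of all genes. Ehbp1l1 followed with 6.79 over 18944 bp and 2.55 per kb, at percentile 78.8. 8430427H17Rik is the longest of the 5 at 122511 bp, and its level of 7.79 came to 0.85 per kb, next to the median of 0.82 over all genes. Creb3l1 had 5.92 over 41843 bp and 0.54 per kb, at percentile 45.0, and Rhpn2 had 5.06 over 58051 bp and -0.80 per kb, at percentile 25.9. The order from Plekho2 to Rhpn2 is that of pooled means, so it is unknown which neighbours differ beyond the spread between libraries. Of 12 erythroid markers 11 were listed, from 3.79 for Hba-a1 (α-globin) to 9.79 for Gata1 in mean log2 CPM, without Ahsp. Of 12 markers of other fetal liver cells 5 were listed, from -1.69 for Col1a1 to 5.30 for Itga2b, a megakaryocyte gene. Csf1r, Pf4, Cd3e, Alb, Afp and Pecam1 were among the defining markers not in the RNA tables. These ranges are not divided by length. Per kb the erythroid markers ran from 0.75 for Alas2 to 6.68 for Gata1, with 3.09 for Hba-a1. The others ran from -5.66 for Col1a1 to 1.25 for Itga2b, so Itga2b stood above Alas2 but below Hba-a1.

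Occupancy is given as DiffBind's concentration, a mean of normalized reads at a site on the log2 scale, and the difference is wild type minus mutant on the log2 scale. Of the 24 sites, 8 (33.3%) were at least 2-fold higher for wild type KLF1-ER, against 28.7% of all 5551 sites. A further 12 were at least 2-fold higher for KLF1-E339K-ER, against 61.5% of all sites, and 4 differed by less than 2-fold. Both shares lay near those of all sites, so their direction is no result about the 5 genes. Within 1 kb of the listed TSS lay 8 sites, of which 3 (37.5%) were higher for wild type and 5 (62.5%) for the mutant, against 31.0% and 57.5% of the 2190 such sites in all. The median difference of the 24 sites was -1.28, against -2.60 over all sites. With that median of all sites set to 0, the split of the 24 sites turned to 12 higher for wild type and 6 higher for the mutant. The same shift moves every site, and the centred shares over all sites were not computed. This split is therefore no result about the 5 genes either.

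**Figure D1:**
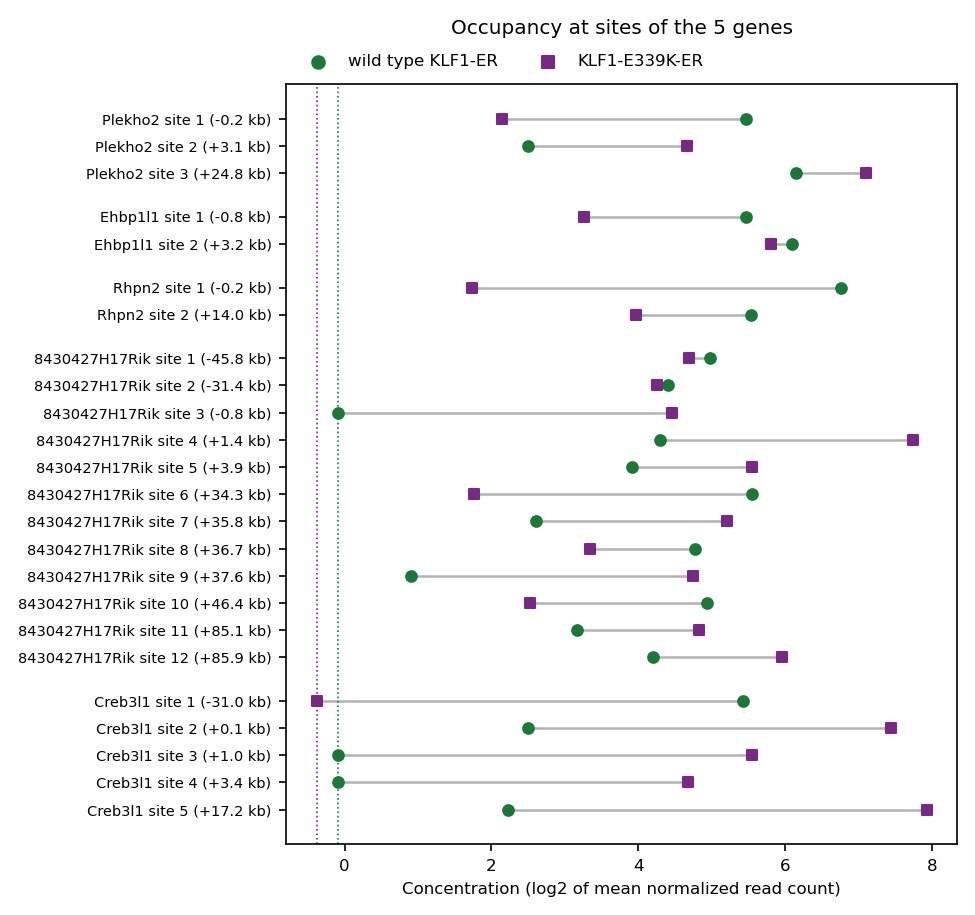
DiffBind concentration (log2, horizontal) of wild type KLF1-ER (green circles) and KLF1-E339K-ER (purple squares) at the 24 sites of the 5 genes, with the distance of each from the annotated TSS; dotted lines mark the lowest listed value of each protein. Rhpn2 has both sites on the wild type side, Creb3l1 has 4 of 5 on the mutant side, and the 12 sites of 8430427H17Rik lie on both sides, as deposited and without centring.

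The genes differed in how their sites were split. Rhpn2 had both of its sites higher for wild type and Ehbp1l1 had 1 higher for wild type and 1 near equal. Creb3l1 had 1 site higher for wild type and 4 for the mutant, and 8430427H17Rik had 3 and 7, with 2 near equal. Plekho2 had 1 of each and 1 within 2-fold. Thus 3 of the 5 genes held sites in both directions, as did 389 of the 1103 listed genes with at least 2 sites (35.3%). These shares are not alike, since a gene with more sites has more room for both directions. Creb3l1 had 5 sites and 8430427H17Rik 12, a number that 2 listed genes reached, and the median over all listed genes was 1. The sites on the wild type side had a median concentration of 5.46 for wild type KLF1-ER and 2.34 for KLF1-E339K-ER, and those on the mutant side 2.50 and 5.37. Over all sites these medians were 5.35 and 2.21 on the wild type side, and 0.91 and 5.25 on the mutant side.

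Rhpn2 (Entrez 52428, chr7:36119194-36177304, plus strand) carried the widest promoter difference in favour of wild type among the 5 genes. Its site 1 (chr7:36118760-36119250), with its midpoint 189 bp upstream of the TSS, had a concentration of 6.75 for wild type KLF1-ER, at percentile 97.2 of all sites. The concentration for KLF1-E339K-ER there was 1.74, at percentile 11.3, a difference of 5.01 or 32.2-fold. The 101 bases at the centre of this site hold 2 matches, both with C at position 5, and the whole site of Rhpn2 holds 5 pyrimidine matches and no purine match. Site 2 (chr7:36132998-36133330), in an intron 14.0 kb downstream of the TSS, had 5.53 and 3.96, a difference of 1.57. It had neither KLF1 motif near its midpoint, but it held 1 GATA motif, the sequence read by GATA1. Over its whole width site 2 held 1 purine match, with G at position 5, and no pyrimidine match. Both sites of Rhpn2 were thus occupied more strongly by the wild type protein, and the gap was larger at the promoter than in the intron.

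Plekho2 (Entrez 102595, chr9:65402193-65427847, minus strand) had a different balance at each of its 3 sites. At site 1 (chr9:65427894-65428210), 205 bp upstream of the TSS, the concentrations were 5.46 for wild type and 2.14 for the mutant, 9.99-fold apart. Its printed window has 3 pyrimidine matches, 2 with C and 1 with T at position 5. The whole of site 1 held 6 pyrimidine matches and 3 purine matches, the latter all with A at position 5. Site 2 (chr9:65424636-65424954), in an intron 3.1 kb downstream, had 2.50 for wild type and 4.66 for the mutant, a difference of -2.16. No motif lay within 50 bp of its midpoint, and the whole site held 3 purine matches. Site 3 (chr9:65402773-65403270) lay 24.8 kb downstream, in the last exon and its 3′ untranslated region, and had the highest concentrations of the gene for both proteins, 6.15 and 7.09. These were at percentiles 93.2 and 97.0 of all sites and differed by -0.94, less than 2-fold. With the median of all sites set to 0, sites 2 and 3 of Plekho2 turned to 0.44 and 1.66 in favour of wild type.

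Ehbp1l1 (Entrez 114601, chr19:5707376-5726317, minus strand) had 2 sites that wild type KLF1-ER occupied to a like extent. Site 1 (chr19:5726967-5727274), 0.8 kb upstream of the gene, had 5.46 for wild type and 3.26 for KLF1-E339K-ER, 4.59-fold apart. It lay 85.5 bp from the start of Gm16538, an annotated processed transcript, so Ehbp1l1 is the listed and not the nearest gene in GENCODE M1. No pyrimidine or purine match was found anywhere in this site of Ehbp1l1. Site 2 (chr19:5722981-5723338), in an intron 3.2 kb downstream, had 6.09 and 5.81, a difference of 0.28. With the median of all sites set to 0 this difference was 2.88. The site was at percentiles 92.5 and 79.8 of all sites and had 1 pyrimidine match with T at position 5 and 1 GATA motif in its central window.

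Creb3l1 (Entrez 26427, chr2:91822485-91864659, minus strand) had the largest listed differences of the 5 genes in both directions, though with values below 1 raised to 1 that in favour of wild type passed to Rhpn2 site 1 (5.01 against 4.42). Site 1 (chr2:91895495-91895824), 31.0 kb upstream, had 5.42 for wild type KLF1-ER and the lowest listed mutant value, -0.38, a difference of 5.80, or 4.42 with values below 1 raised to 1. It lay in an exon of 2900072N19Rik, a processed transcript with a closer start, and its printed window has a match with C at position 5 on each strand. Outside that window the site held 1 purine match, with A at position 5. The other 4 sites of Creb3l1 were all higher for the mutant. Site 2 (chr2:91864377-91864727), with its midpoint in the 5′ untranslated region of the first exon, had 2.50 for wild type and 7.44 for KLF1-E339K-ER, 30.7-fold apart. Site 5 (chr2:91847115-91847832), in an intron 17.2 kb downstream, had 2.23 and 7.92, 51.6-fold apart, and at percentile 99.4 it was the strongest mutant site of the 5 genes. Sites 3 (chr2:91863417-91863818) and 4 (chr2:91861077-91861402), also intronic, were at the lowest listed wild type value of -0.09, with 5.55 and 4.67 for the mutant. Their differences of -5.64 and -4.76 rest on that lowest value, and were -4.55 and -3.67 with values below 1 raised to 1. The start of Creb3l1 in GENCODE M1 and in the authors' table differed, which placed site 3 at 1041.5 bp from the first and 709.5 bp from the other. The central window of Creb3l1 site 2 held a C, a T and a G match, whereas sites 3, 4 and 5 held none. Over the whole width, site 2 held 3 pyrimidine and 2 purine matches, site 3 held 1 purine match and site 5 held 2 pyrimidine and 1 purine.

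**Figure D2:**
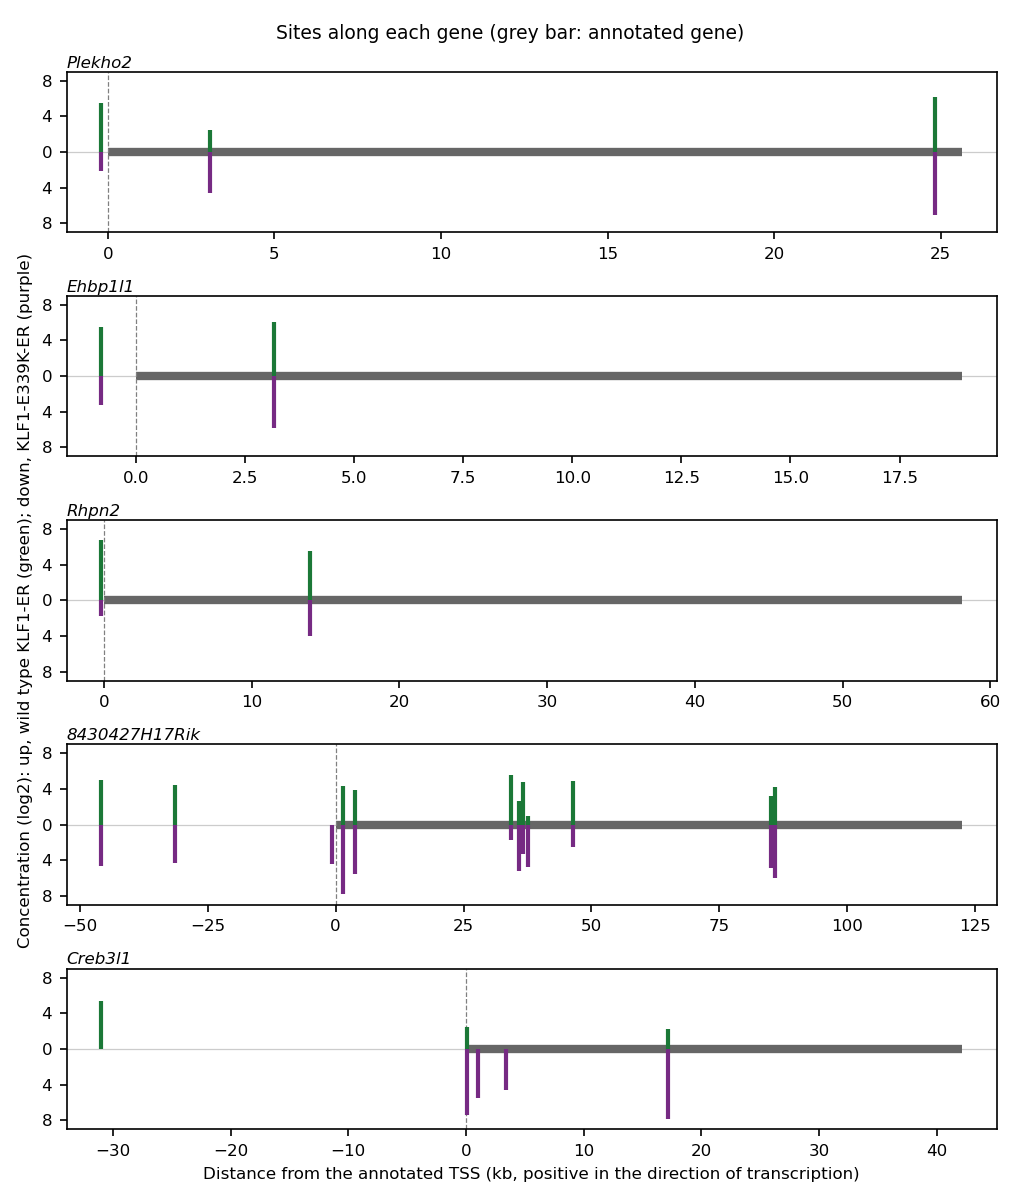
Sites of each gene by distance from the annotated TSS (kb, positive in the direction of transcription), with the concentration (log2) of wild type KLF1-ER drawn upward in green and that of KLF1-E339K-ER downward in purple; values below 0 are drawn at 0 and the grey bar is the gene. At Plekho2 and Rhpn2 the site next to the TSS is taller for wild type (5.46 against 2.14 and 6.75 against 1.74), and at Creb3l1 it is taller for the mutant (2.50 against 7.44).

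8430427H17Rik (Entrez 329540, chr2:153233198-153355707, minus strand) had 12 sites by the listed closest TSS, a number exceeded in the table only by Gse1 with 32, while 2567 of the 3670 listed genes had a single site. Its listed length was at percentile 91.4 of all genes, and counts of sites were not compared per length. The 12 sites spread over 131.7 kb, and GENCODE M1 gives the gene 6 transcripts with 6 starts. The 2 far upstream sites had near equal concentrations as deposited. Site 1 (chr2:153401389-153401699) at -45.8 kb had 4.98 and 4.69 and site 2 (chr2:153386933-153387256) at -31.4 kb had 4.40 and 4.25, for wild type and mutant. Around the main start the mutant was higher at 3 sites. Site 3 (chr2:153356301-153356615), 0.8 kb upstream, was at the lowest wild type value of -0.09 with 4.46 for the mutant, a difference of -4.55, or -3.46 with values below 1 raised to 1. Its window has 2 overlapping purine matches, both with G at position 5. Site 4 (chr2:153353793-153354772), in an intron 1.4 kb downstream, had 4.30 and 7.74, 10.9-fold apart and at percentile 99.2 for the mutant. It was the widest of the 24 sites at 980 bp and held the most matches, with 11 purine and 7 pyrimidine matches in all. Site 5 (chr2:153351670-153351998), at 3.9 kb, had 3.91 and 5.54.

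Deeper in the same gene, wild type and mutant preference alternated between neighbours around 4930404H24Rik, a protein-coding gene on the opposite strand inside 8430427H17Rik. Site 6 (chr2:153321231-153321539) had 5.54 for wild type and 1.76 for the mutant, and site 7 (chr2:153319623-153320097), 1.5 kb away, had 2.61 and 5.20. Site 8 (chr2:153318823-153319158), 0.9 kb further, had 4.77 and 3.34, and site 9 (chr2:153317991-153318301), 0.8 kb further and in an exon, had 0.91 and 4.74. Sites 6, 7 and 8 have the start of 4930404H24Rik as the nearest one in GENCODE M1. Site 10 (chr2:153309150-153309489), 8.8 kb beyond, was again higher for wild type, with 4.93 against 2.53. Sites 9 and 10 lay 107 and 242.5 bp from further annotated starts of 8430427H17Rik. Sites 11 (chr2:153270409-153270731) and 12 (chr2:153269544-153270138) lay on either side of an internal start of the gene, at 355 and 374 bp from it. Site 11 had 3.16 and 4.83, site 12 had 4.20 and 5.96, and their single purine matches in the central window had G and A at position 5. With the median of all sites set to 0, the differences of sites 5, 7, 11 and 12 of 8430427H17Rik turned to 0.97, 0.01, 0.93 and 0.84 in favour of wild type, and the near equal sites 1 and 2 moved to 2.89 and 2.75.

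**Figure D3:**
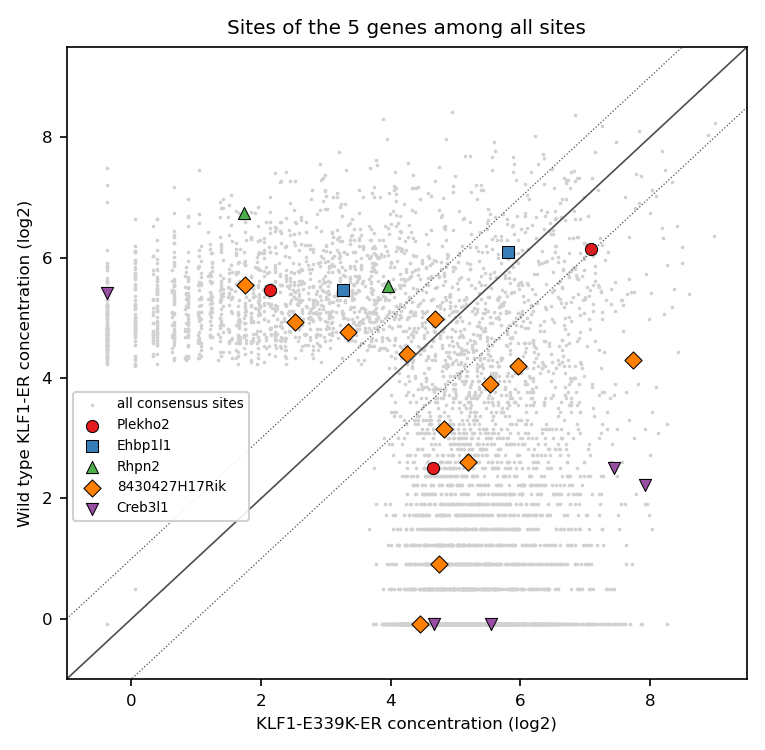
Wild type KLF1-ER concentration (log2, vertical) against KLF1-E339K-ER concentration (log2, horizontal) of all 5551 consensus sites (grey) and of the 24 sites of the 5 genes (coloured symbols); the solid line marks equal values and the dotted lines 2-fold. The 24 sites fall in every part of the cloud, with 8 above the upper dotted line, 12 below the lower one and 4 between; a site entered the table only as a peak of at least 1 of the proteins, and the lower left is nearly empty.

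Motifs were then compared between the sites of the 5 genes and all sites. A pyrimidine motif lay within 50 bp of the midpoint in 9 of the 24 sites (37.5%) and in 35.3% of all sites. A purine motif lay there in 6 (25.0%) and in 35.5% of all sites, and 12 of the 24 sites had neither. On the wild type side 4 of 8 sites had a pyrimidine match and 0 a purine match, against 60.7% and 16.0% of all 1591 sites on that side. On the mutant side 3 of 12 had a pyrimidine match and 6 a purine match, against 22.8% and 45.8% of all 3414. The 8 central matches on the wild type side had C at position 5 in 6 cases and T in 2. The 12 on the mutant side had G in 7, A in 1, T in 3 and C in 1. Over the whole width of the sites the make-up differed, since matches on the mutant side then had G in 14 cases, A in 14, T in 14 and C in 5. A purine match lay somewhere in 11 of these 12 sites and a pyrimidine match in 7, against 69.6% and 47.2% of all such sites, and Creb3l1 site 4 had neither. Whole-site matches on the wild type side had C in 11 cases, T in 4, A in 4 and G in 1. A purine match lay somewhere in 3 of these 8 sites and a pyrimidine match in 5, against 33.2% and 78.8% of all sites on that side. These shares describe letters in the genome, and with 8 and 12 sites they moved by a large step with each site. GC content of the central window had a median of 64.4% in the 24 sites and 63.4% in all.

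GATA motifs, spelled as GATAA or as GATAG after a preceding A or T on either strand and read by GATA1 at many erythroid enhancers, lay in the central window of 4 of the 24 sites (16.7%), against 20.6% of all sites. They were Plekho2 site 3, Ehbp1l1 site 2, Rhpn2 site 2 and 8430427H17Rik site 7. None of the 4 lay within 1 kb of a listed TSS of its gene.

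**Figure D4:**
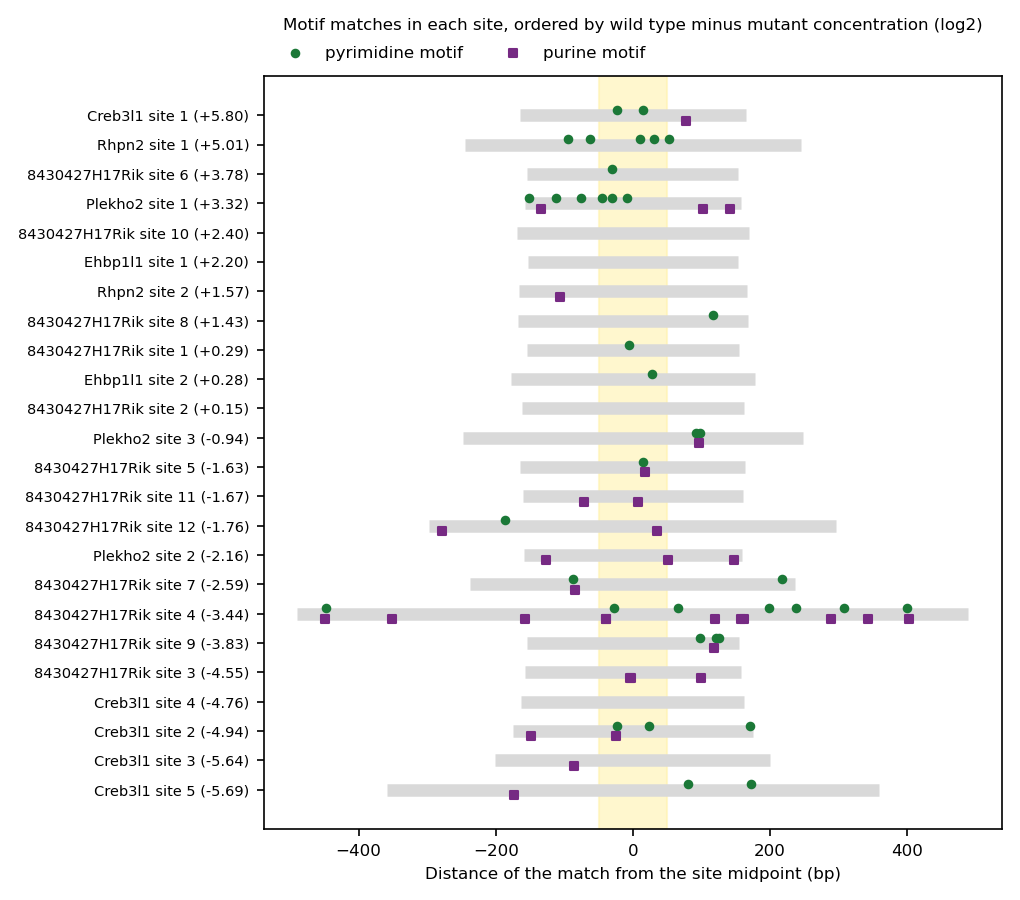
Position of each motif match from the midpoint of its site (bp, horizontal) for the 24 sites, ordered from the largest difference in favour of wild type (top) to the largest in favour of the mutant; green circles are pyrimidine and purple squares purine matches, grey bars show the width of a site and the shaded band the 101 bases counted. Among the matches counted, purine ones lie only at sites below Plekho2 site 3, on the mutant side, while pyrimidine matches are found from Creb3l1 site 1 at 5.80 to Creb3l1 site 2 at -4.94.

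Genes whose own site within 1 kb of the TSS had the most similar pair of concentrations were looked up among 2182 sites of other genes. For the start of Plekho2 (5.46 for wild type and 2.14 for the mutant) they were Fam126a with 5.45 and 2.13, Taf10 with 5.40 and 2.14, and Trp53i13 with 5.46 and 2.07. For Rhpn2 site 1 (6.75 and 1.74) they were Acp5 with 6.74 and 1.66, Syf2 with 6.67 and 1.76, and Hexa with 6.76 and 1.85. For Ehbp1l1 site 1 they were Tubb3, Gpr155 and Csrp1, all within 0.06 in Euclidean distance. Sfr1 and 2210408F21Rik lay at distances of 0.12 and 0.14 from Creb3l1 site 2 and Aph1a at 0.42. Bag2, Msi2 and Rsbn1 lay at 0.01 from Creb3l1 site 3. Map3k2, Clip2 and D930028M14Rik had the same pair as 8430427H17Rik site 3. Pcf11, Slc29a1 and Fam129b lay within 0.17 of site 11, and Jund, Gm13826 and 8030423F21Rik within 0.18 of site 12 of that gene.

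Related genes and pathway partners were looked up in both kinds of table. Of the 8 paralogs 4 were measured in RNA and 2 had sites. Plekho1, the paralog of Plekho2 that binds casein kinase 2, had a site 3738.5 bp from its TSS with -0.09 for wild type and 5.49 for the mutant, and 1 at 20947.5 bp with 4.34 and 2.53. Creb3l3, a liver relative of Creb3l1, had a site with 6.20 and 5.47, although its mean log2 CPM was only -0.84. All 6 genes of endoplasmic reticulum stress signalling were measured, including Mbtps1 and Mbtps2, the proteases that free the factors of the Creb3l1 family, and 0 of them had a site. Among 7 genes of endocytic recycling, the pathway of Ehbp1l1, Ehd2 (-0.09 and 4.18) and Rab8b (3.23 and 4.63) had a site each, both higher for the mutant, as were 61.5% of all sites. Among 3 subunits of casein kinase 2, Csnk2a1 had 1 site with -0.09 and 4.53. The share of all measured genes that had a site was not computed. How many genes of a list had a site, or had none, is therefore no result about that list.

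Genes widely known as KLF1 targets in red cells were set beside the 5 genes as a description. Of 27 such genes 22 were measured, and 16 had 30 sites, of which 11 were higher for wild type and 10 for the mutant by at least 2-fold, against 28.7% and 61.5% of all sites. The number of genes with a site again has no share of all genes beside it. Within 10 kb of the TSS the known targets had 27 sites with a median difference of -0.34, while the 5 genes had 13 with a median of -1.76 and sites at any distance from any gene had -2.60. In wild type concentration alone, Rhpn2 site 1 at 6.75 lay nearest to sites of E2f2 (6.70), Epor (6.66, the erythropoietin receptor) and Epb4.9 (7.0, a membrane skeleton gene). The mutant had 7.04 at that site of E2f2, 6.55 at that of Epor and 3.75 at that of Epb4.9, against 1.74 at Rhpn2. The E2f2 gene, a cell cycle regulator with 4 sites, had 1 site higher for wild type by at least 2-fold and 3 within 2-fold.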

How the data were processed

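The members and gene lists were chosen with earlier results of these data known. The authors aligned Ion Proton reads to the mm9 genome (TopHat2 2.0.10 and TMAP for RNA, TMAP for ChIP), dropped low-quality RNA reads and duplicate or multi-mapped ChIP reads, called peaks with MACS2 and GEM, and compared sites with DiffBind. Versions of limma and DiffBind are not given in the sources used here. The 3 deposited tables hold, as the authors' log2 values, mean CPM per gene (limma-voom) and concentrations per site and protein, pooled, with lengths and positions in bp. Their comparison columns (log2 fold change, t, Fold, p-values, FDR) were not used. RNA tables were joined on Entrez identifier, length and mean.

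Computed here (python 3.11, pandas 2.3.3, numpy 2.4.6) were differences of concentrations, called at 2-fold, distances to GENCODE M1 starts and motif matches in NCBIM37. Adding the listed distance to the midpoint met an annotated start within 100 bp for 92.5% of sites. The search was tested on simulated sequences. Genes are named if they are members, paralogs, pathway partners, known targets, markers, the 3 most similar promoter sites, genes with a nearer start, or, added later, Gse1. Alternatives were other assignments, thresholds, centring and windows. Library depth is unknown, so no interval can be given. One partner list and some sequences are not reported here.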

Additional observations from a re-analysis of the deposited data

How the results depend on the processing

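No paired analysis was possible because the tables hold 1 pooled value per gene or protein and none per library, and for the same reason no library could be left out. Of the 24 sites, 13 remained when sites beyond 10 kb were dropped and 8 when those beyond 1 kb were, by construction. With the nearest start in GENCODE M1 in place of the listed one, 19 sites kept their gene and 5 did not. The 5 were Ehbp1l1 site 1, Creb3l1 site 1 and 8430427H17Rik sites 6, 7 and 8. All of them except 8430427H17Rik site 7 were on the wild type side, so that side rests more on the listed assignment. The 12 sites higher for the mutant became 6 with the median difference of all sites set to 0 and 7 with a concentration of at least 5 required for the higher protein. Centring, by construction a shift of 2.60, changed the sign of 6 differences from negative to positive. They were those of Plekho2 site 2 (0.44) and site 3 (1.66) and 8430427H17Rik sites 5 (0.97), 7 (0.01), 11 (0.93) and 12 (0.84). Of these only Plekho2 site 3, within 2-fold before, was then at least 2-fold higher for wild type, and the rest were within 2-fold. Searching the whole site raised the sites with a pyrimidine motif from 9 to 15 and those with a purine motif from 6 to 15, or to 10 within 100 bp. The count higher for wild type, 8 at first, was 6 at 4-fold, 12 after centring and 6 with the concentration minimum. At the lowest listed values (3 sites for wild type, 1 for the mutant) a difference depends on that floor. Raising values below 1 to 1 changed 5 differences, reversed 0 and left both counts as they were. No depth was available to say what could be detected.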
